A study of Mus musculus with 6 samples.

Results

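Transcripts of 39 genes of G2 and mitosis were followed by bulk RNA sequencing of cells that the labels call hair follicle cells, taken by flow sorting from mouse dorsal skin at postnatal day 0. The 39 genes were taken by symbol from a list of G2, spindle, kinetochore and cytokinesis genes out of 24453 symbols in each count file. The rule sets no threshold on measured values, but the list was drawn up with earlier results of these data known. Libraries of the genotype Ring1a-/- Ring1b-/I53A (I53A, 3 libraries) were set against control libraries (CTL, 3 libraries), whose genotype the labels give only as control. Ring1a, encoded by Ring1, and Ring1b, encoded by Rnf2, are the ubiquitin ligases of Polycomb repressive complex 1, and the I53A substitution in Ring1b is known to weaken its binding to the E2 enzyme and so its ligase activity. Loss of Ring1a, a null allele of Ring1b and the I53A allele occur together in the I53A group, so their effects cannot be told apart. The sources used here name no Cre driver or strain, and do not say whether the libraries of a group came from separate animals. The p-values therefore measure the spread between these libraries, which may be technical in part.

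A cell that has copied its DNA passes through G2, condenses its chromosomes, attaches them to the spindle, separates them and divides. Cyclin-dependent kinase 1 starts this sequence together with cyclins A and B, and the anaphase-promoting complex (APC/C) ends it by marking cyclin B and other proteins for destruction. Most of the genes involved are transcribed in a wave in G2 and M and are nearly silent in resting cells, so their RNA is widely used as a measure of cycling cells. In skin, the matrix and outer root sheath of growing follicles and the basal epidermis hold the dividing keratinocytes. In bulk RNA, fewer cycling cells and less RNA per cycling cell cannot be told apart.

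The labels say hair follicle, whereas the protocol text spells out only a Sca1-positive gate for interfollicular epidermis. Library totals ran from 14335156 to 18811587 counts, and 1 CPM (counts scaled by library total and TMM factor) stood for 14.7 to 18.2 reads. Ring1 was at 3.23 to 7.10 CPM in I53A and 16.8 to 22.1 CPM in CTL libraries (log2 fold change -1.98, SE 0.33, edgeR adjusted p = 0.0113), and Rnf2 at 64.6 to 71.3 and 55.7 to 67.8 CPM (edgeR adjusted p = 0.736). The part of Rnf2 missing from its null allele is not stated in those sources, and gene counts do not show the I53A codon. Of the 15 follicle markers, Sox9 was at 392 to 925 CPM in I53A and 363 to 746 CPM in CTL libraries, and Lgr5 at 82.1 to 85.9 and 134 to 200.2 CPM (log2 fold change -1.09, edgeR adjusted p = 0.0125). Among the 15, 7 had negative log2 fold changes (median 0.04), and Krt17 had one of 0.74 (edgeR adjusted p = 0.0766). Ly6a, which encodes the Sca1 antigen, was at 1.00 to 1.49 and 0.502 to 1.31 CPM. Every member had at least 109 reads in every library, and all 39 passed the filter on low counts.

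Of the 39 G2 and mitosis genes, 2 fell in the I53A libraries, most others had lower means that did not pass the test, and 4 had log2 fold changes at or above 0. The log2 fold change was negative for 35 of 39 members, against 50.3% of all 14345 genes tested. Its median was -0.45, which is 26.6% less RNA, where the median of all genes tested was 0.00. Those that fell were Smc4 and Mki67, and no member rose at an adjusted p under 0.05, against 0.404% of all genes tested that fell and 2.59% that rose. With the replicate number as a block 14 members fell and none rose, and that fit called 3.29% of all genes as lower and 6.09% as higher. In 22 members every I53A library was below every CTL library, which was so for 9.15% of all genes tested, and no member showed the opposite order. DESeq2 called 9 members as lower (1.48% of all genes) and limma-voom 3 (0.453%). At an unadjusted p under 0.05, 21 members were lower, against 5.44% of all genes. Other scalings and filters gave 2 or 3 members, against 0.397%, 0.460%, 0.383%, 0.545% and 0.461% of all genes. Leaving out CTL 3 or I53A 3 kept Smc4 alone (0.743% and 0.419% of all genes lower), and leaving out CTL 1, CTL 2, I53A 1 or I53A 2 left no member called (0.149%, 0.175%, 0.129% and 0.136%). The median lay between -0.54 and -0.38 in those fits.

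**Figure D1:**
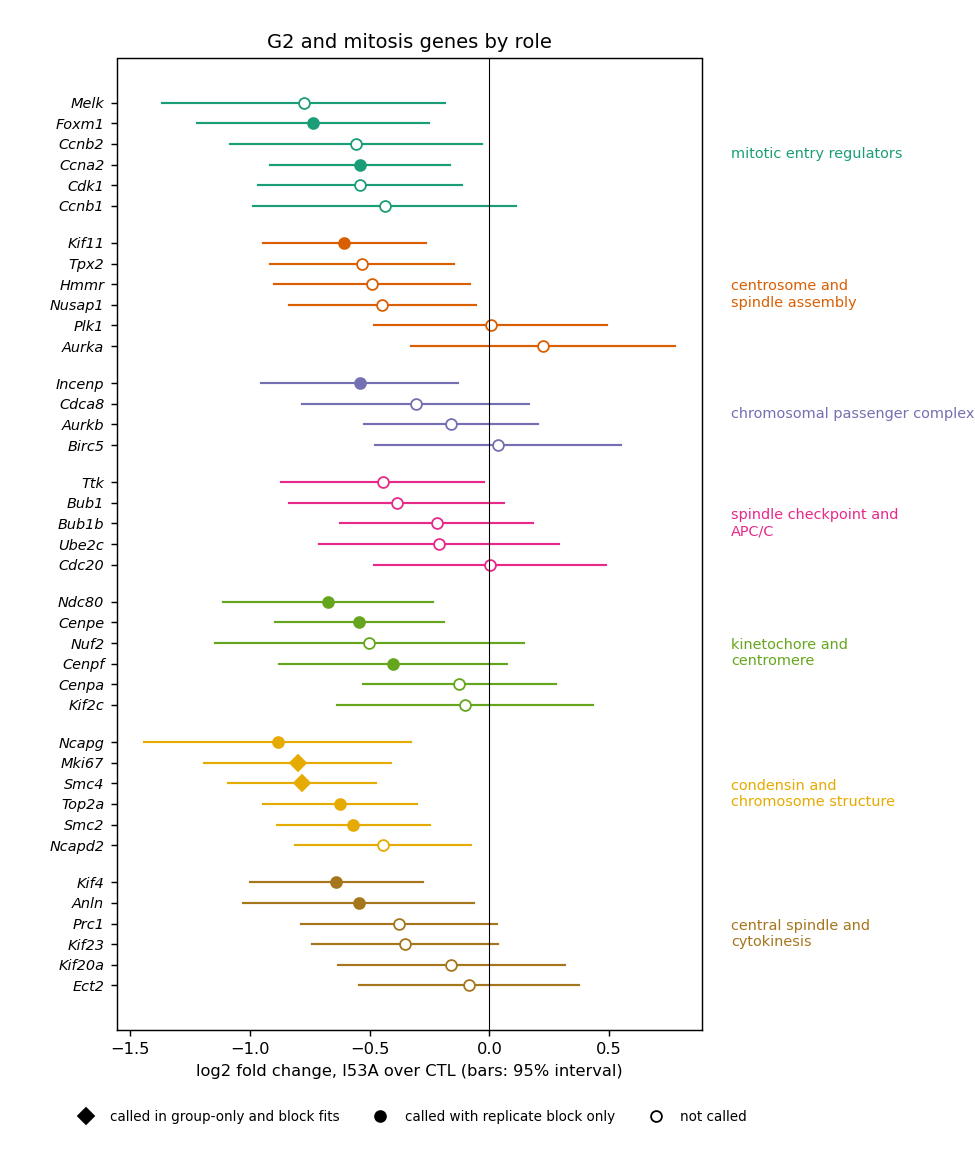
Log2 fold change of each of the 39 members, I53A over CTL, with its 95% interval from the edgeR fit on 3 against 3 libraries, grouped by role. Diamonds mark Smc4 and Mki67, called in both fits, filled circles the 12 members called with the replicate block only, and open circles members called in neither; the values run from -0.88 for Ncapg to 0.22 for Aurka.

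Promoters of G2 and M genes are known for the CHR element (cell cycle genes homology region), which MuvB complexes bind, and for CCAAT boxes, which NF-Y binds. RefSeq windows of 250 bases before to 50 after the start (GRCm38.p6) were matched for 32 members, with no entry for Ccna2, Aurkb, Kif20a, Tpx2, Foxm1, Smc4 and Incenp. Of these, 25 held the CHR letters TTTGAA on either strand, against 20.2% of the 27025 genes in the table, and 25 held CCAAT on either strand, against 41.1%. Both were present in 22 of 32 members, with CCAAT counted before the start, against 7.20% of all genes. In the 100 bases before the start 8 of 32 members held TTTGAA, against 6.76% of all genes, and in the 250 bases before it 13 did, against 18.3%. Members with a CHR match had a median log2 fold change of -0.45 (n = 25), as had the members with no match (-0.45, n = 7). The last 150 bases before the start are shown for some members with large differences (Mki67, Top2a, Kif11, Ncapg). They are also shown for the central kinase Cdk1, and for Cdc20 and Plk1, whose groups overlapped. Among members not shown, Melk and Ndc80 (log2 fold changes -0.78 and -0.67) held neither motif in those 150 bases. Kif4 (-0.64) held CCAAT there but no TTTGAA. After the start, Ndc80 and Kif4 had a CHR match, beginning at 30 and 20 bases, and so count among the 25. Capitals mark TTTGAA or CCAAT and their reverse complements.
Mki67 (chr7:135716380-135716529, minus strand): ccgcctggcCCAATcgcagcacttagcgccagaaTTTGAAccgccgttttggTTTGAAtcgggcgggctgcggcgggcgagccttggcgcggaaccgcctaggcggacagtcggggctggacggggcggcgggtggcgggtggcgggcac
Top2a (chr11:99024190-99024339, minus strand): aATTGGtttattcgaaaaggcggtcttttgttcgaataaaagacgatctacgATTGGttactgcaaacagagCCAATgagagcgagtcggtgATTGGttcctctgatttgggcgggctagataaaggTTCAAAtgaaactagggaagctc
Kif11 (chr19:37376232-37376381, plus strand): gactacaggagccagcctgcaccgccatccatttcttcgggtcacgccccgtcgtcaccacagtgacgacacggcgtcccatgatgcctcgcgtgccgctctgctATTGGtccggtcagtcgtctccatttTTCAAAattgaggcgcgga
Ncapg (chr5:45669775-45669924, plus strand): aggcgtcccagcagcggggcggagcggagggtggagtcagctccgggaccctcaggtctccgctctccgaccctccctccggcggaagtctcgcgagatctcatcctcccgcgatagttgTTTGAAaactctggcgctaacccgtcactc
Cdk1 (chr10:69352913-69353062, minus strand): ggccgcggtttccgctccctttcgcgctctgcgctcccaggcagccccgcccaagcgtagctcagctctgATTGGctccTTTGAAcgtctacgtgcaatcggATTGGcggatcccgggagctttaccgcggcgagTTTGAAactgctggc
Cdc20 (chr4:118437344-118437493, minus strand): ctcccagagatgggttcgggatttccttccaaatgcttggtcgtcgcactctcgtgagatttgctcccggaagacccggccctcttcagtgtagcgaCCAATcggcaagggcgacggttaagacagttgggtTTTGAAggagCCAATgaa
Plk1 (chr7:122159285-122159434, plus strand): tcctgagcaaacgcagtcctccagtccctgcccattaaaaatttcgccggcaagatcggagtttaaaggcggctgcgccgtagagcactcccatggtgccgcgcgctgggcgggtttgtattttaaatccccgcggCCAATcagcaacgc

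Mki67 carried 2 CHR matches, beginning 116 and 98 bases before the start, and Cdk1 also had 2, at 71 and 15 bases. Cdc20 had a CHR match 18 bases before the start between a pair of CCAAT boxes. The window of Plk1 held 1 CCAAT box 14 bases before the start, and its CHR match began 31 bases after it. The motifs were thus found among members with large differences and among members whose fold change was near 0.

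The chromosome structure class had the lowest median of the 7 classes, which were not tested against each other. All 6 genes had non-overlapping groups, against 9.15% of all genes tested, with a median log2 fold change of -0.70. Such groups were seen in 4 of 6 entry regulators, 4 of 6 spindle genes and 3 of 6 cytokinesis genes. They were also seen in 2 of 6 kinetochore, 2 of 4 passenger and 1 of 5 checkpoint genes, beside the same share. Melk, Foxm1, Ndc80 and Kif4 of other classes had lower fold changes than Top2a, Smc2 and Ncapd2 of the chromosome structure class. Smc4 and Mki67 fell, and Top2a, Smc2 and Ncapg joined them with the replicate block. Smc4 (chromosome 3, 69004738 to 69034623, GRCm38) encodes an ATPase subunit shared by condensin I and II, the complexes that compact mitotic chromosomes. It was at 292, 284 and 252 CPM in the I53A libraries, against 447, 497 and 479 CPM in the CTL libraries (log2 fold change -0.78, SE 0.14, edgeR adjusted p = 0.0155). Its lowest CTL library was above its highest I53A library by more than the range of either group. Smc2 (chromosome 4, 52439243 to 52488260), the partner ATPase of Smc4, was at 127, 120.1 and 117 CPM in the I53A libraries, against 179, 195 and 165 CPM in the CTL libraries (log2 fold change -0.57, SE 0.14, edgeR adjusted p = 0.0695, and 0.0115 with the replicate block). Ncapg (chromosome 5, 45669919 to 45700546), a condensin I subunit that helps hold DNA, was at 29.6, 23.4 and 15.4 CPM in the I53A libraries, against 44.5, 44.05 and 37.6 CPM in the CTL libraries (log2 fold change -0.88, SE 0.25, edgeR adjusted p = 0.106, and 0.015 with the replicate block). The Ncapg difference had the widest spread of the class, with I53A 3 farthest down. Of its exon bases 13.4% overlap Lcorl on the other strand, at 31.2 and 43.8 CPM in I53A and CTL libraries. Ncapd2, another condensin I subunit on the list, averaged 87.5 ± 11.5 CPM in I53A and 119 ± 11.7 CPM in CTL libraries (SD, n = 3 each) and was called in neither fit (log2 fold change -0.44, SE 0.16, edgeR adjusted p = 0.227, and 0.0686 with the replicate block).

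Mki67 (chromosome 7, 135689784 to 135716361) encodes Ki-67, which coats mitotic chromosomes and keeps them apart. Its transcript was at 1335, 1079 and 1242 CPM in the I53A libraries, against 1797, 2031 and 2532 CPM in the CTL libraries (log2 fold change -0.80, SE 0.17, edgeR adjusted p = 0.0408). It was the most abundant member, also per kilobase of exon. Top2a (chromosome 11, 98992943 to 99024189), the topoisomerase that untangles sister DNA, was at 384, 345 and 357 CPM in the I53A libraries, against 489.9, 574 and 607 CPM in the CTL libraries (log2 fold change -0.62, SE 0.14, edgeR adjusted p = 0.0515, and 0.00789 with the replicate block). For both genes CTL 3 was the highest library and I53A 2 the lowest. In the fits without 1 library Mki67 kept a log2 fold change between -0.91 and -0.64 but was called in none, with an adjusted p of up to 0.164. Smc4 ran from -0.82 to -0.72, with an adjusted p of up to 0.0790 (edgeR).

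The 6 regulators of mitotic entry all had negative log2 fold changes, with a median of -0.55, and 4 had groups that did not overlap. None was called without the block, and with it Foxm1 and Ccna2 fell. Foxm1 (chromosome 6, 128362967 to 128376146), the forkhead factor that activates many G2 and M genes, was at 102, 98.7 and 111 CPM in the I53A libraries, against 121, 174 and 225 CPM in the CTL libraries (log2 fold change -0.74, SE 0.22, edgeR adjusted p = 0.12, and 0.022 with the replicate block). The CTL libraries differed among themselves more than the I53A libraries did, and CTL 1 lay closest to the I53A values. Ccna2 (chromosome 3, 36564865 to 36572150), cyclin A2 of S phase and G2, was at 82.2, 71.3 and 81.2 CPM in the I53A libraries, against 94.98, 119 and 127 CPM in the CTL libraries (log2 fold change -0.54, SE 0.17, edgeR adjusted p = 0.144, and 0.042 with the replicate block). It shares 12.5% of its exon bases with Exosc9 on the other strand, at 8.50 and 12.1 CPM.

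Cdk1 (chromosome 10, 69335146 to 69352938) was at 18.97, 18.2 and 17.3 CPM in the I53A libraries, against 27.9, 25.9 and 25.4 CPM in the CTL libraries (log2 fold change -0.54, SE 0.19, edgeR adjusted p = 0.201, 95% interval -0.96 to -0.11). Its groups were each tight and well apart, yet the adjusted p stayed above the threshold, also with the block (0.0886). The B-type cyclins are the partners of Cdk1 that drive mitosis itself. Ccnb2 was at 26.5, 33.3 and 32.2 CPM in the I53A libraries, against 31.6, 54.2 and 49.5 CPM in the CTL libraries (log2 fold change -0.56, SE 0.23, edgeR adjusted p = 0.303, and 0.0763 with the replicate block). Ccnb1 was at 29.6, 26.7 and 17.6 CPM in the I53A libraries, against 26.8, 38.4 and 34.96 CPM in the CTL libraries (log2 fold change -0.44, SE 0.25, edgeR adjusted p = 0.472, and 0.255 with the replicate block). In both cyclin B genes CTL 1 lay within the I53A range and the other 2 CTL libraries above it. The annotation names a pseudogene of each (Ccnb1-ps and Ccnb2-ps), with which reads may be shared. Melk, a kinase gene of cycling cells, was at 12.2, 11.2 and 7.29 CPM in the I53A libraries, against 17.7, 18.4 and 16.5 CPM in the CTL libraries (log2 fold change -0.78, SE 0.26, edgeR adjusted p = 0.183, and 0.0616 with the replicate block).

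**Figure D2:**
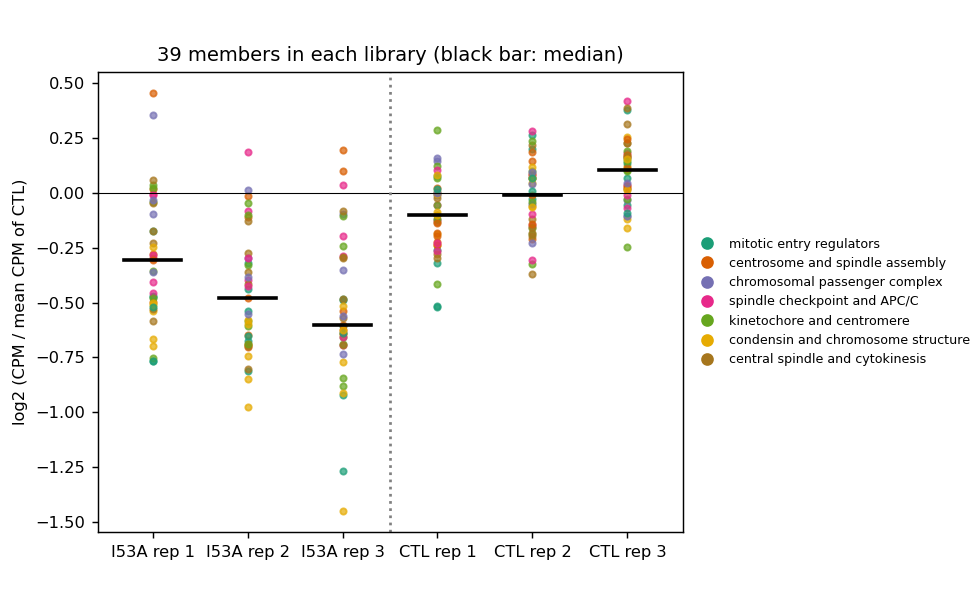
Level of each of the 39 members in each library, as log2 of its CPM over its mean CPM in the CTL libraries, coloured by role, with the median of the members as a black bar. The I53A medians all lie under the CTL medians, I53A 1 nearest to them, and the members spread widely within each library.

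Of the 6 centrosome and spindle genes, 4 had groups apart and 2 had fold changes at or above 0. Kif11 (chromosome 19, 37376403 to 37421859), the kinesin that pushes spindle poles apart, was at 177, 153 and 162 CPM in the I53A libraries, against 219, 247 and 281 CPM in the CTL libraries (log2 fold change -0.61, SE 0.15, edgeR adjusted p = 0.0695, and 0.015 with the replicate block), and it was the 1 gene of this class that fell with the block. Tpx2, which activates Aurora A on spindle microtubules, was at 108, 82.8 and 85.5 CPM in the I53A libraries, against 116, 148 and 136 CPM in the CTL libraries (log2 fold change -0.53, SE 0.17, edgeR adjusted p = 0.161, and 0.0581 with the replicate block). Every Tpx2 value in I53A lay under the CTL range, I53A 1 by the smallest margin. Hmmr and Nusap1, a spindle assembly factor and a microtubule bundler, also had non-overlapping groups and log2 fold changes of -0.49 and -0.45, with edgeR adjusted p of 0.232 and 0.261.

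The kinases Aurka and Plk1, which mature the centrosome and act through mitosis, were called in neither fit. Aurka was at 17.9, 12.9 and 14.9 CPM in the I53A libraries, against 11.04, 14.8 and 13.2 CPM in the CTL libraries (log2 fold change 0.22, SE 0.25, edgeR adjusted p = 0.763, 95% interval -0.33 to 0.78). Plk1 was at 17.1, 15.6 and 18.1 CPM in the I53A libraries, against 17.1, 14.6 and 18.8 CPM in the CTL libraries (log2 fold change 0.01, SE 0.22, edgeR adjusted p = 0.994, 95% interval -0.48 to 0.49). The interval for Plk1 leaves out the change seen in Smc4, and that for Aurka also leaves out a fall of the median size of the members. The interval of Smc4 itself, -1.09 to -0.47, meets that of Plk1. The direct difference between these genes and Smc4 was not tested.

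In the chromosomal passenger complex, which corrects faulty attachments and later starts cytokinesis, the members also differed in size. Its scaffold gene Incenp (chromosome 19, 9872296 to 9899551) was at 56.9, 49.7 and 43.9 CPM in the I53A libraries, against 81.4, 62.3 and 75.3 CPM in the CTL libraries (log2 fold change -0.54, SE 0.18, edgeR adjusted p = 0.182, and 0.046 with the replicate block), and it fell with the block. The borealin gene Cdca8 had a log2 fold change of -0.31 (95% interval -0.78 to 0.16) and the kinase gene Aurkb of -0.16 (95% interval -0.52 to 0.20). Aurkb groups did not overlap despite this small difference, at 46.9 to 53.8 CPM in I53A and 56.3 to 59.2 CPM in CTL libraries. Birc5 (survivin) was at 29.3, 23.1 and 17.98 CPM in the I53A libraries, against 25.4, 22.1 and 21.3 CPM in the CTL libraries (log2 fold change 0.04, SE 0.23, edgeR adjusted p = 0.97, 95% interval -0.48 to 0.55). Its I53A libraries spanned both sides of the CTL range, and none of these last 3 genes was called in either fit.

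No spindle checkpoint or APC/C gene on the list was called in either fit. The class had a median log2 fold change of -0.22. Ttk, the checkpoint kinase Mps1, was the 1 gene of the 5 with groups apart, at 29.6, 26.9 and 22.9 CPM in the I53A libraries, against 38.7, 33.7 and 35.8 CPM in the CTL libraries (log2 fold change -0.45, SE 0.19, edgeR adjusted p = 0.309, and 0.123 with the replicate block). Bub1 and Bub1b, a kinase and a pseudokinase of the same checkpoint, had log2 fold changes of -0.39 (95% interval -0.83 to 0.06) and -0.22 (95% interval -0.62 to 0.18). Cdc20, which activates the APC/C at anaphase, was at 27.7, 31.7 and 24.3 CPM in the I53A libraries, against 23.2, 33.8 and 26.5 CPM in the CTL libraries (log2 fold change 0.00, SE 0.22, edgeR adjusted p = 0.998, 95% interval -0.48 to 0.49). The groups covered each other, and 53 bases of its exons overlap Elovl1 on the other strand, at 44.8 and 29.2 CPM. Ube2c, the ubiquitin-conjugating enzyme of the APC/C, was at 73.6, 79.4 and 100.1 CPM in the I53A libraries, against 83.1, 79.01 and 130.4 CPM in the CTL libraries (log2 fold change -0.21, SE 0.22, edgeR adjusted p = 0.755, 95% interval -0.71 to 0.29). Its CTL mean rested on CTL 3, and without that library its log2 fold change was 0.07.

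Kinetochore and centromere genes had a median of -0.45, and Ndc80, Cenpe and Cenpf fell with the block. Ndc80 (chromosome 17, 71496100 to 71526857) encodes a subunit of the complex that grips microtubules, and it was at 27.9, 24.1 and 21.1 CPM in the I53A libraries, against 35.8, 37.8 and 43.02 CPM in the CTL libraries (log2 fold change -0.67, SE 0.20, edgeR adjusted p = 0.116, and 0.0481 with the replicate block). Nuf2, its partner in that complex, was at 9.04, 14.7 and 8.49 CPM in the I53A libraries, against 16.6, 16.3 and 12.8 CPM in the CTL libraries (log2 fold change -0.50, SE 0.29, edgeR adjusted p = 0.482, and 0.21 with the replicate block). Here I53A 2 lay inside the CTL range and the other 2 I53A libraries below it, and Nuf2 was the lowest member per kilobase of exon. Cenpe (chromosome 3, 135212537 to 135273611), a kinesin that carries chromosomes to the spindle equator, was at 283, 238 and 225 CPM in the I53A libraries, against 349, 325 and 414 CPM in the CTL libraries (log2 fold change -0.54, SE 0.16, edgeR adjusted p = 0.117, and 0.0242 with the replicate block). Cenpf (chromosome 1, 189640606 to 189688086), a large kinetochore protein of G2, was at 365, 250.1 and 238 CPM in the I53A libraries, against 457, 300.1 and 369 CPM in the CTL libraries (log2 fold change -0.40, SE 0.21, edgeR adjusted p = 0.439, and 0.0403 with the replicate block). Its groups overlapped through I53A 1 and CTL 2, while each I53A library was below the CTL library of its number. Cenpa, the histone H3 variant of centromeres, and Kif2c, a microtubule depolymerase, were at log2 fold changes of -0.13 (95% interval -0.53 to 0.28) and -0.10 (95% interval -0.64 to 0.43).

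The central spindle and cytokinesis genes ranged from -0.64 for Kif4 to -0.08 for Ect2. Kif4 (chromosome X, 100625737 to 100727214), a chromosome-bound kinesin that also organises the midzone, was at 79.5, 70.9 and 71.00 CPM in the I53A libraries, against 115, 100.3 and 129 CPM in the CTL libraries (log2 fold change -0.64, SE 0.16, edgeR adjusted p = 0.0711, and 0.0151 with the replicate block). Of its exon bases 15.1% overlap Pdzd11, at 33.4 and 32.6 CPM, and a pseudogene, Kif4-ps, is annotated. Anln (chromosome 9, 22332012 to 22389188), the anillin that scaffolds the contractile ring, was at 108, 92.8 and 132 CPM in the I53A libraries, against 132, 142 and 211 CPM in the CTL libraries (log2 fold change -0.55, SE 0.22, edgeR adjusted p = 0.264, and 0.0243 with the replicate block). Its groups met at I53A 3 and CTL 1, which were nearly equal, and CTL 3 was far above the rest. Prc1, which bundles midzone microtubules, and Kif23, of centralspindlin, had groups apart but were not called (log2 fold changes -0.38 and -0.35, edgeR adjusted p = 0.380 and 0.395). The kinesin gene Kif20a shares 29.3% of its exon bases with Cdc23, at 65.4 and 77.0 CPM, and had a log2 fold change of -0.16 (95% interval -0.63 to 0.31). Exons of Ube2c (22.8%, with Tnnc2), Prc1 (11.1%, with Rccd1), Plk1 (7.09%, with Gm44985), Cdca8 (4.48%, with 9930104L06Rik) and Nusap1 (4.24%, with Oip5) also overlap a gene on the other strand. Ect2, the RhoA exchange factor of the division furrow, was at 45.5, 43.05 and 44.4 CPM in the I53A libraries, against 46.3, 36.3 and 58.4 CPM in the CTL libraries (log2 fold change -0.08, SE 0.21, edgeR adjusted p = 0.907, 95% interval -0.54 to 0.38), and its log2 fold change was 0.11 without CTL 3.

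**Figure D3:**
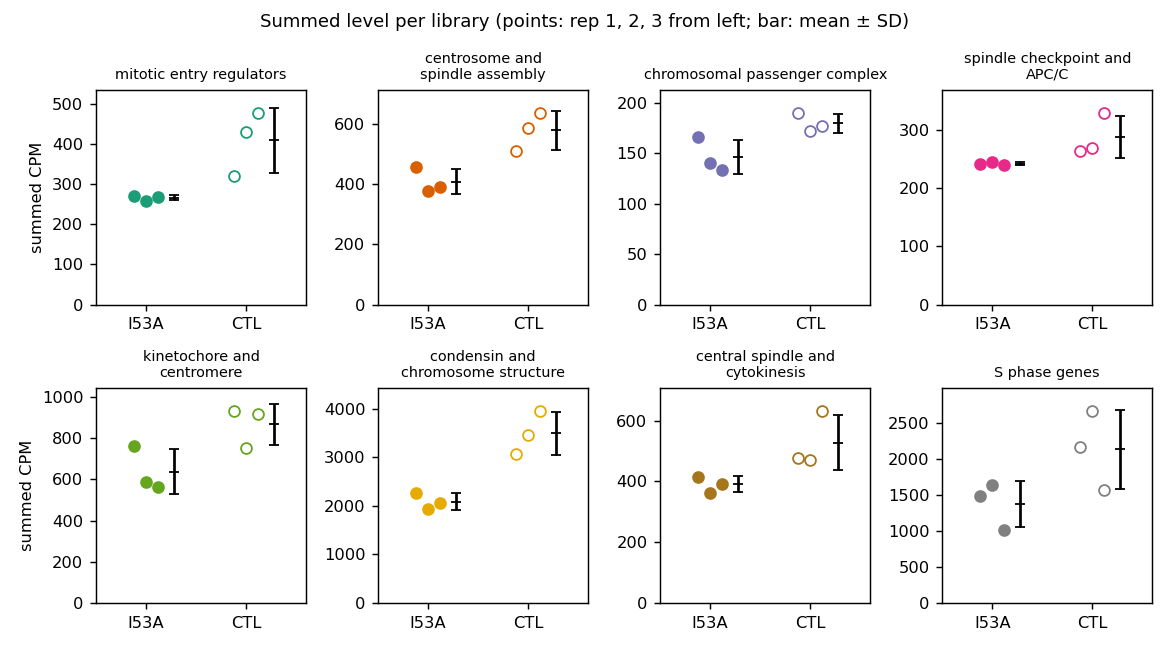
Summed CPM of each role class, and of the S phase list, in each library, I53A left of CTL, with points for libraries 1, 2 and 3 and bars for mean ± SD (n = 3). The chromosome structure class sums to 1929 to 2269 CPM in I53A and 3068 to 3953 CPM in CTL libraries, and groups overlap for the kinetochore class and the S phase list.

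Summed over the members, G2 and mitosis RNA was 4581, 3903 and 4052 CPM in the I53A libraries and 5763, 6137 and 7128 CPM in the CTL libraries. The ratio of the group means was 0.659, and the members held 0.387% to 0.484% of the reads of an I53A library and 0.590% to 0.668% of those of a CTL library. Mki67 gave the largest part of these sums. I53A 1 was the highest I53A library for 31 of 39 members, and CTL 3 the highest CTL library for 19. The chromosome structure class had a ratio of 0.598 and the checkpoint and APC/C class 0.840. Mki67 alone averaged 1219 of the 2088 CPM of the chromosome structure class in I53A and 2120 of 3492 CPM in CTL libraries. The checkpoint and APC/C sum was 242, 245 and 240 CPM (I53A) against 264, 269.6 and 330.1 CPM (CTL), with I53A libraries close together and CTL 3 apart from the other 2 CTL libraries. The kinetochore sum was 763 CPM in I53A 1, above the 751 CPM of CTL 2.

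Compared by replicate number, the median log2 ratio of I53A to CTL over the members was -0.21 for number 1, -0.49 for number 2 and -0.67 for number 3. The medians of all genes tested were -0.01, 0.02 and 0.00. In number 1, 32 of 39 members were lower, in number 2, 35, and in number 3, 38. For 29 members all 3 numbers gave a lower I53A value, against 22.4% of all genes tested. Aurka and Birc5 were the 2 members lower in a single number. Ccnb1, Kif20a, Kif2c, Bub1b and Cdc20 were higher in I53A 1 than in CTL 1 and lower in the other 2 numbers.

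The size of the difference varied with level and with gene length. Per kilobase of annotated exon, Mki67 was first, at 121 and 211 CPM per kb in I53A and CTL libraries, then Smc4 at 52.95 and 91.03 and Top2a at 40.1 and 61.8. The lowest was Nuf2, at 1.70 and 2.40. Across the 39 members the log2 fold change correlated with log2 CTL level per kb at r = -0.41 (rho -0.43). With log2 exon length it correlated at r = -0.46 (rho -0.46), both as a description over genes that share the same libraries. The CTL libraries enter both the level and the fold change, which by itself can make the r with level negative. For level, no value over all genes was computed. The 20 members with at least 5177 exon bases had a median of -0.54 and the other 19 a median of -0.39. Over all 14042 matched genes tested, r with log2 exon length was 0.01 (rho -0.05), and the medians above and below 5177 bases were -0.04 and 0.03.

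**Figure D4:**
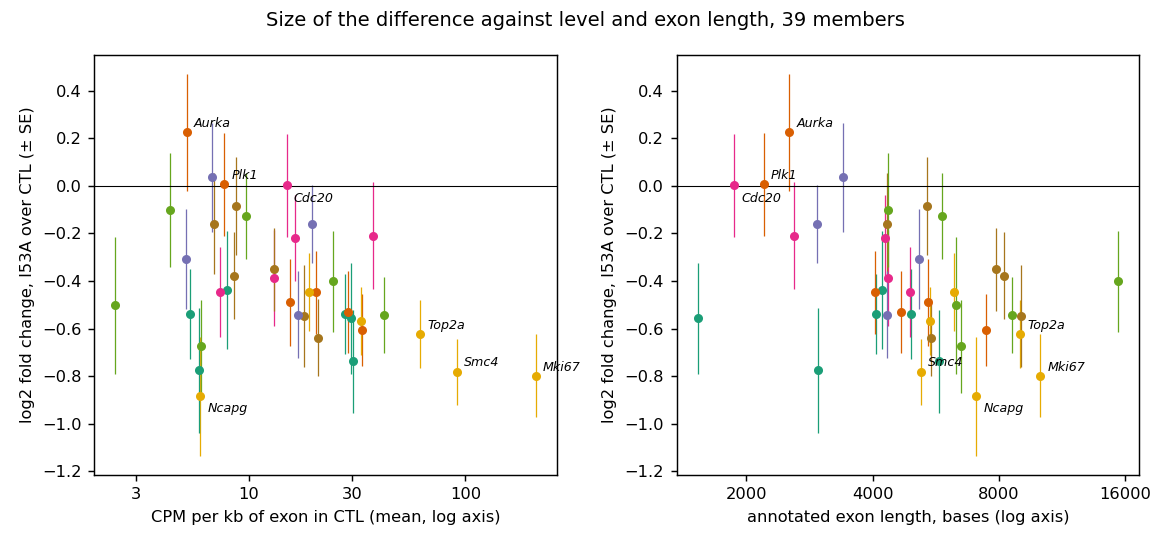
Log2 fold change (I53A over CTL, ± SE) of the 39 members against their mean CTL level in CPM per kb of exon (left) and their annotated exon length (right), both on log axes, with colours for the role classes as in the plot of folds by role. The scatter is wide: among the shortest members Cdc20, Plk1 and Aurka lie at or above 0 but Ccnb2, the shortest, at -0.56, and among the longest Mki67 lies at -0.80 and Cenpf, the longest, at -0.40.

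Other cell cycle lists also had mostly negative fold changes. Of 77 further G2 and mitosis genes, 71 had negative log2 fold changes (median -0.42), against 50.3% of all genes tested, 1 fell, against 0.404%, and 14 fell with the block, against 3.29%. The same shares of all genes apply to the lists that follow. The gene that fell was Kif15 (a kinesin that assists Kif11), at 106, 88.2 and 78.3 CPM in the I53A libraries, against 140.0, 169 and 172 CPM in the CTL libraries (log2 fold change -0.82, SE 0.17, edgeR adjusted p = 0.0324). Ncapg2, a condensin II subunit, was at 69.6, 76.9 and 49.00 CPM in the I53A libraries, against 112, 144 and 107 CPM in the CTL libraries (log2 fold change -0.89, SE 0.21, edgeR adjusted p = 0.0539, and 0.00299 with the replicate block). Kntc1, of the kinetochore RZZ complex, was at 41.3, 46.03 and 27.6 CPM in the I53A libraries, against 75.02, 95.2 and 62.1 CPM in the CTL libraries (log2 fold change -1.01, SE 0.24, edgeR adjusted p = 0.0561, and 0.00243 with the replicate block). All 3 had non-overlapping groups, which choosing genes by smallest p favours. In 36 of the 77 genes every I53A library was below every CTL library, against 9.15% of all genes tested.

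Of 50 S phase genes 46 were negative (median -0.60), 1 fell, and 19 fell with the block. The gene that fell was Mcm6, of the replicative helicase, at 55.9, 63.9 and 44.5 CPM in the I53A libraries, against 132, 134 and 88.4 CPM in the CTL libraries (log2 fold change -1.11, SE 0.21, edgeR adjusted p = 0.0239). Pola1 and Pola2, subunits of the polymerase that primes DNA synthesis, had log2 fold changes of -1.01 and -1.07 (edgeR adjusted p = 0.0865 and 0.0887, and 0.00297 and 0.00653 with the replicate block). The S phase sum was 1484, 1636 and 1011 CPM in I53A and 2165, 2671 and 1570 CPM in CTL libraries. Both number 3 libraries were the lowest of their groups for S phase RNA, whereas CTL 3 was the highest for the G2 and mitosis members. Of 20 genes of the DREAM, MuvB, Myb and E2F regulators, 17 were negative (median -0.30), none was called, and 4 fell with the block. E2f8, a repressor E2F, was at 82.2, 86.8 and 88.8 CPM in the I53A libraries, against 111, 147 and 144 CPM in the CTL libraries (log2 fold change -0.64, SE 0.16, edgeR adjusted p = 0.0747, and 0.0122 with the replicate block). The retinoblastoma gene Rb1 had a log2 fold change of -0.58 (edgeR adjusted p = 0.127, and 0.0239 with the replicate block) and E2f7 one of -0.55 (edgeR adjusted p = 0.180, and 0.0759 with the block). Rbl1 and Lin54 were the other genes of this list that fell with the block.

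APC/C core subunits with their regulators had a median of -0.15 over 17 genes, with 13 negative, none called and 1 fallen with the block, so that calls give no result about this list. That gene was Fbxo5 (Emi1), the inhibitor that holds the APC/C in check until mitosis, at 8.99, 10.02 and 6.62 CPM in the I53A libraries, against 17.1, 29.7 and 15.5 CPM in the CTL libraries (log2 fold change -1.28, SE 0.31, edgeR adjusted p = 0.0638, and 0.0108 with the replicate block). Anapc11 and Cdc27, both core subunits, had log2 fold changes of -0.86 and -0.21 (edgeR adjusted p = 0.184 and 0.597). The lists were not tested against each other or against the members.

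**Figure D5:**
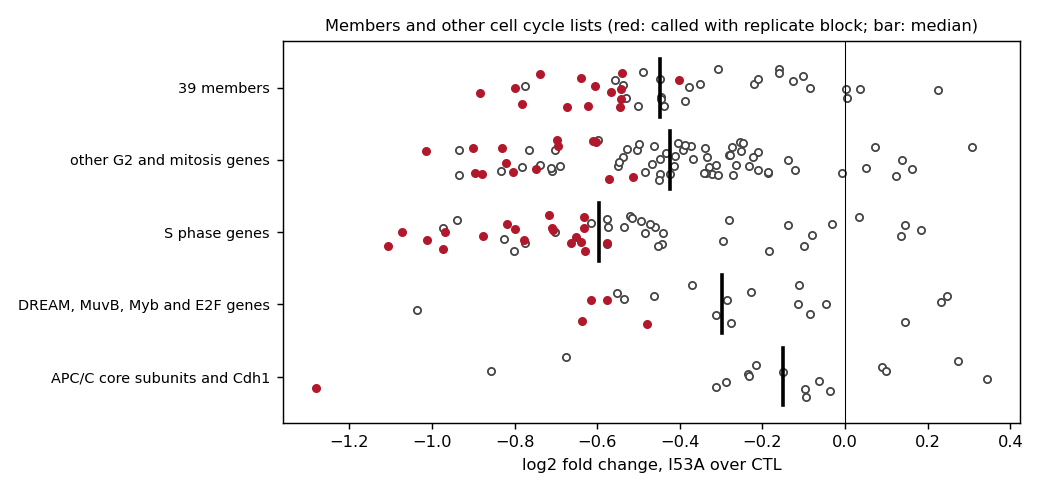
Log2 fold change (I53A over CTL) of the 39 members and of the genes of 4 other cell cycle lists, 1 point per gene, red where called with the replicate block, with the list median as a bar. The medians are -0.45 for the members, -0.42 for further G2 and mitosis genes, -0.60 for S phase genes, -0.30 for DREAM, MuvB, Myb and E2F genes and -0.15 for APC/C genes.

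Markers of other cells and layers were read beside these values. The 10 suprabasal markers in the files (11 listed) summed to 2747 to 4470 CPM in I53A and 4225 to 5692 CPM in CTL libraries, mostly from Krt1 and Krt10. Of the 10, 4 had negative log2 fold changes (median 0.135), and none was called in the group-only fit. With the replicate block Krt1 fell (log2 fold change -0.66, edgeR adjusted p = 0.00154) and Krtdap rose (0.62, edgeR adjusted p = 0.00578). The 14 inner root sheath and hair shaft markers summed to 290.1 to 349 and 193 to 265 CPM, mostly from Gata3. Of the 9 tested, 7 had negative log2 fold changes (median -0.84), among them Krt25 at -2.54 and Krt27 at -1.44, neither called. Krt85 rose in the group-only fit, and with the block Krt35 fell and Gata3 rose as well (edgeR adjusted p = 0.0439 and 0.00653). Both keratins were low, Krt85 at 0.869 to 2.41 CPM in I53A and 0 to 0.0681 CPM in CTL libraries. Krt35 was at 0.0596 to 1.54 and 0.941 to 5.85 CPM. The 15 follicle keratinocyte markers summed to 13580 to 18540 and 12430 to 14820 CPM, mostly from Krt5 at 8465 to 11750 and 7437 to 8840 CPM. Of these 15, 7 had negative log2 fold changes (median 0.04), and Lgr5 fell in both fits. With the block Shh and Edar also fell (edgeR adjusted p = 0.0056 and 0.0385), and Krt17 and Krt5 rose (0.00366 and 0.0476). The 6 interfollicular basal markers summed to 13260 to 18110 and 12200 to 15110 CPM, also mostly from Krt5. Both lists hold Krt5 and Krt14, so these sums do not tell follicle from interfollicular cells. Of the 6, 1 had a negative log2 fold change (median 0.31). None of the 6 was called in the group-only fit, and Krt5 was called as higher with the block. The 10 fibroblast and dermal papilla markers summed to 687 to 964 and 618 to 1101 CPM, with none called. The 9 immune markers summed to 13.7 to 25.1 and 15.7 to 67.4 CPM, with Cd3g at 0 in every library. The 7 melanocyte, 6 endothelial, 7 muscle and adipocyte and 6 Merkel cell markers summed to at most 46.5, 27.1, 14.1 and 24.9 CPM in any library. No marker of the fibroblast, immune, melanocyte, endothelial, muscle and adipocyte or Merkel lists was called in either fit. The part of these cells in the lower level of the members was not tested.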

How the data were processed

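Each library was deposited by the authors as a table of raw counts, whole numbers by gene symbol that differ in total and so carry no scaling. The submitters' processing notes name TopHat2 2.0.13, Cufflinks 2.2.1, HTSeq 0.6.1, DESeq2 1.6.3 and mm10, without role or order. How strand was handled, and which annotation was counted, is not stated there, so reads of overlapping genes on opposite strands cannot be told apart. Per the labels' protocols, cDNA was amplified from 10 ng of RNA, so reads are not independent molecules.

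All 24453 symbols entered 1 fit (edgeR 4.0.16, R 4.3.3): TMM factors, filterByExpr (14345 genes kept), quasi-likelihood test, group as the only term, Benjamini-Hochberg adjustment over all genes tested, two-sided threshold 0.05. Intervals and SE come from the F statistic. Only the group-only fit was tested on simulated counts, with changes larger than the median change of the members. The replicate block and the other alternatives were not tested in that way. No 2 libraries agreed within sampling noise (chi-square per degree of freedom at least 25.1 over 15 pairs). Exon lengths and gene positions are from GENCODE M21 (GRCm38), promoters from RefSeq (GRCm38.p6).

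Replicate numbers are shared by the groups, and the labels do not say what they mark. The correlation of deviations from the group mean, over all genes tested, was 0.183, 0.187 and 0.373 between libraries of 1 number. The minimum was 0.1, and other pairs reached at most 0.119 (I53A 2 with CTL 1), which also passes it. The members did not rank by number alike in both groups. I53A 1 was highest of its group for 31 of 39 members, whereas CTL 1 was lowest of its group for 19. I53A 3 was lowest of its group for 21, whereas CTL 3 was highest of its group for 19. The pairing thus comes from the data and is uncertain, and the blocked fit is given beside named genes and lists whose calls it changed.

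Members and lists were chosen with earlier results of these data known, and the lists were not set tested. Named genes are all members, those called or with the smallest p by role with full values, and up to 3 genes per further list by p. The rule allowed about 20 members with values by library; further ones (such as Aurka, Plk1, Birc5, Cdc20, Ube2c, Nuf2 and Ect2, with small differences) were added after their values were seen. Casc5 was read as Knl1. Alternatives were DESeq2 1.42.0, limma 3.58.1 (voom), other scalings and filters, and leaving out each library.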

Additional observations from a re-analysis of the deposited data

How the results depend on the processing

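Against 2 members lower in the group-only fit, 14 were lower with the replicate block and 9 with DESeq2. The shares of all genes called as lower were 0.404%, 3.29% and 1.48% in these fits. Limma-voom, upper-quartile factors and no filter gave 3 each (0.453%, 0.460% and 0.545%). DESeq2-type size factors, library totals only and the stricter filter gave 2 (0.397%, 0.383% and 0.461%). Leaving out 1 library gave 0 to 1 (0.129% to 0.743%), and no setting called a member as higher. The median log2 fold change of the members ran from -0.54 to -0.38 without 1 library and from -0.46 to -0.39 in the other settings. With the replicate block, calls in the other lists moved to 14 for further G2 and mitosis genes, 19 for S phase genes, 4 for DREAM, MuvB, Myb and E2F genes and 1 for APC/C genes. The block also moved the share of all genes called, from 0.404% to 3.29% lower and from 2.59% to 6.09% higher. Members with a CHR match were 8 with 100 bases before the start in place of the whole window. Signs turned in 6 members near 0, none called in any setting. Plk1 was at -0.0052 with DESeq2, -0.0050 with DESeq2-type size factors and -0.0071 with upper-quartile factors, and Cdc20 at -0.0112, -0.011 and -0.0049. Without 1 library, log2 fold changes ran from -0.092 to 0.10 for Plk1, -0.11 to 0.16 for Cdc20, -0.15 to 0.20 for Birc5, -0.27 to 0.029 for Kif2c, -0.36 to 0.067 for Ube2c and -0.24 to 0.11 for Ect2. The cause of these changes was not tested. Fits without 1 library have fewer samples. With SE of 0.14 to 0.29 on the log2 scale, many differences near the median size of the members did not pass at 3 against 3 libraries.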
